A study of Sus scrofa with 6 samples.

Results

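FGFBP1 (fibroblast growth factor binding protein 1), 5 fibroblast growth factor (FGF) ligands and the 4 FGF receptors were followed in the ampulla of the pig (Sus scrofa) oviduct. The ampulla is the segment where eggs are fertilised. The ligands were FGF1, FGF2, FGF7, FGF9 and FGF10, and the receptors FGFR1, FGFR2, FGFR3 and FGFR4. All 10 listed genes had a row among the 35670 genes of the count table, and all 10 were among the 17920 genes that passed the filter on low counts. The study compared the ampulla at 2 stages of the cycle, with 3 early luteal and 3 post-ovulatory libraries of polyadenylated RNA from whole tissue. The labels state no breed, age or treatment for either stage, name no batch, and do not say whether the 3 libraries of a stage came from separate sows, so the spread between them may be technical.

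FGFs are secreted or cell-associated proteins that act on tyrosine kinase receptors together with heparan sulphate, the sugar chain of cell-surface and matrix proteoglycans. Much FGF is held in the matrix by that sugar. In human and mouse, FGFBP1 is a secreted protein of epithelial cells that binds FGFs such as FGF1, FGF2, FGF7 and FGF10 and frees them from the matrix. Stromal FGF7 and FGF10 act on a splice form of FGFR2 that epithelial cells make, and FGF signalling through the kinase ERK switches on its own inhibitors, the Sprouty and DUSP genes. Counts per gene do not separate the splice forms of the receptors.

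Library totals were 8342520 to 14785020 counts in the early luteal and 7370723 to 30954222 counts in the post-ovulatory stage. A count of 3 corresponded to between 0.0959 and 0.406 CPM (counts as a share of the TMM-scaled library total, times 1e6), a floor that covers counting error only. Early luteal replicate 2 stood apart: its log2 CPM correlated with those of the other libraries at a median r of 0.822 across genes, against medians of 0.916 to 0.937 for each of the other 5. In that library 20.3% of all tested genes lay under 0.5 times their level in every other library, against at most 3.11% in any other. Epithelial and ciliated cell markers were present in every library, with EPCAM at 385 to 1093 CPM and the ciliary regulator FOXJ1 at 79.3 to 654 CPM.

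FGFBP1 was the member with the widest difference between the stages, and it was lower in the early luteal ampulla. It stood at 21.4, 10.7 and 13.6 CPM in early luteal replicates 1, 2 and 3, from 332, 79 and 204 counts, against 192, 78.4 and 76.2 CPM in post-ovulatory replicates 1, 2 and 3, from 2573, 621 and 2382 counts. All 3 early luteal libraries lay below all 3 post-ovulatory ones, and post-ovulatory replicate 1 was high within its stage. The means were 15.2 ± 5.53 CPM at the early luteal stage and 115 ± 66.0 CPM at the post-ovulatory stage (SD, n = 3 each), so the post-ovulatory mean was 7.58 times the early luteal one. The fitted log2 fold change, early luteal over post-ovulatory, was -2.92 ± 0.47 (SE). The gene was taken up because of this difference: its unadjusted p ranked 9 among the 17920 tested genes, and after Benjamini-Hochberg adjustment its p by the quasi-likelihood test of edgeR was 0.333, which missed the threshold of 0.05. These values describe how FGFBP1 came to be chosen and are no separate support for it. The same holds for the stage differences of the other 9 members, which are given without a test. In whole tissue, fewer cells of a type and less RNA per cell cannot be told apart.

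**Figure D1:**
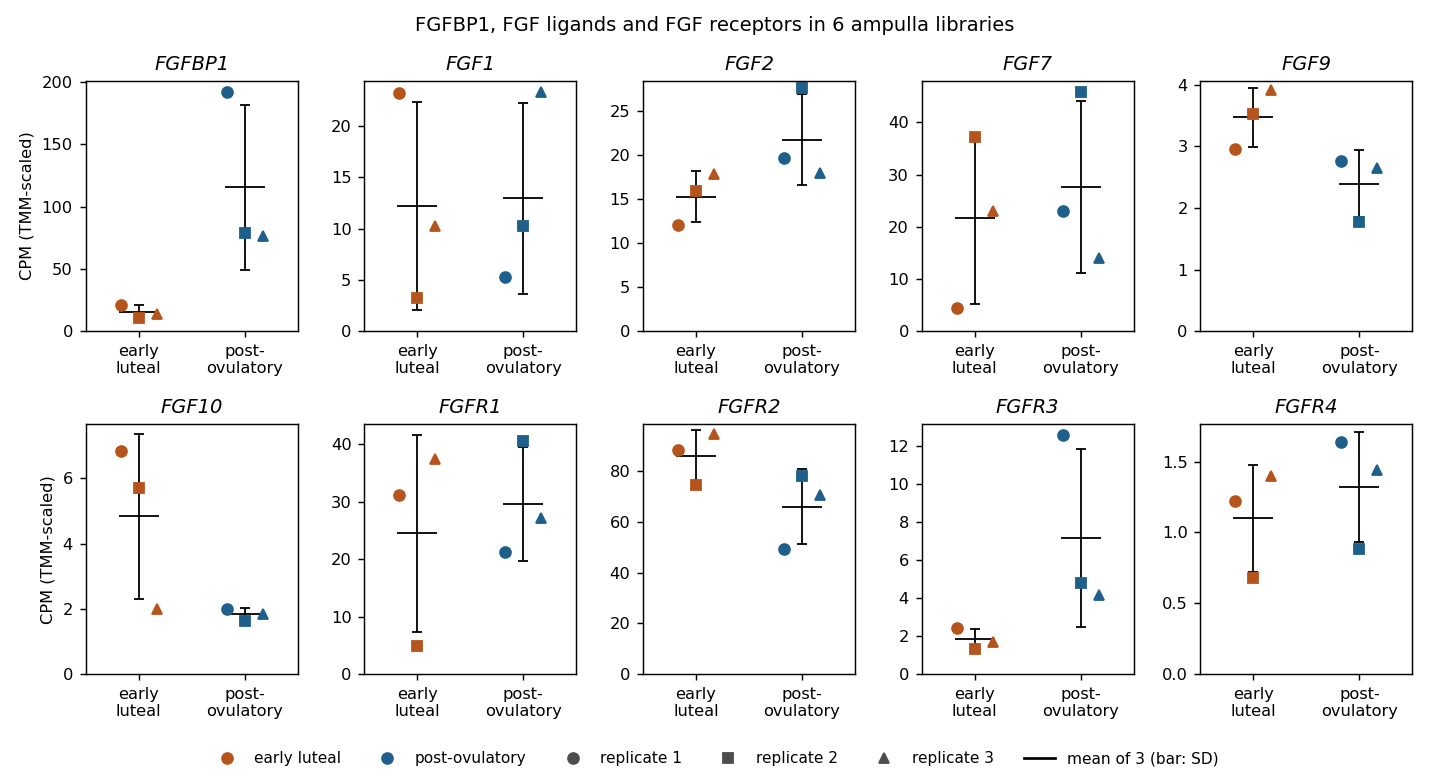
CPM of the 10 genes in each library (vertical axes, linear and starting at 0, each with its own range), early luteal left and post-ovulatory right; symbols mark the replicates, the horizontal line is the mean of 3 libraries and the bar its SD. FGFBP1 and FGFR3 are lower in all 3 early luteal libraries, while FGF1, FGF7 and FGFR1 spread widely within a stage.

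The size of the difference in FGFBP1 depended on which of the 6 tested genes of the epithelium list it was set against, within the same library, a scale chosen after its values were seen and one that no library scaling enters. Per 1000 counts of the epithelial adhesion gene EPCAM, FGFBP1 had 39.5, 9.79 and 27.5 counts in early luteal replicates 1, 2 and 3, against 356, 204 and 146 in the post-ovulatory replicates. The stages again did not overlap. The geometric mean was 9.99 times as high in post-ovulatory tissue against EPCAM, 8.98 times against the cadherin gene CDH1 and 11.96 times against the keratin gene KRT7. Against the keratin genes KRT18 and KRT8 the stages did not overlap either, but the geometric mean was 5.48 and 4.09 times as high. Against OVGP1, the gene of the oviduct's secretory glycoprotein, the stages overlapped. There were 73.2, 10.5 and 5.76 FGFBP1 counts per 1000 in early luteal replicates 1, 2 and 3 and 26.2, 503 and 7.13 in post-ovulatory replicates 1, 2 and 3. OVGP1 itself spread widely within each stage, from 292 to 2356 CPM in the early luteal and from 156 to 10688 CPM in the post-ovulatory libraries. FGFBP1 is also strongly made in squamous epithelia, and markers of that cell type were near the floor: KRT4 reached at most 0.0665 CPM and TP63 at most 2.71 CPM in any library, while KRT5, KRT13, KRT14 and KRT6A were not analysed here. The summed level of the 10 fibroblast markers, all with a row, was lower in every early luteal library too, at 1224 to 1421 CPM in the early luteal and 1624 to 3063 CPM in the post-ovulatory libraries. Singly, 5 of the 10 were lower with no overlap between the stages and 5 overlapped; the log2 fold change was below 0 for 9 and above 0, at 0.07, for DPT. Their part in the result was not tested.

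The genes whose profile over the 6 libraries was most like that of FGFBP1 were KIF2C, NPM3, CTPS1, EMID1 and VASH1. Likeness was the root mean square difference between log2 CPM values centred per gene, over 10713 genes with a symbol and a mean of at least 5 CPM, and it was 0.28 for KIF2C and 0.50 for VASH1, against a median of 1.49 over all candidates. KIF2C, a kinesin of the mitotic spindle, stood at 2.38, 1.22 and 1.20 CPM in early luteal replicates 1, 2 and 3 and at 22.3, 5.30 and 8.18 CPM in post-ovulatory replicates 1, 2 and 3. As with FGFBP1, post-ovulatory replicate 1 was the highest library. CTPS1, which makes the nucleotide CTP, stood at 7.99, 3.12 and 7.65 CPM at the early luteal stage and at 38.5, 23.7 and 21.8 CPM in post-ovulatory replicates. NPM3 is a nucleolar chaperone, EMID1 a matrix protein and VASH1 an inhibitor of angiogenesis. Since these profiles share the libraries and were ranked on the same 6 values as FGFBP1, the list is a description.

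FGFR3 was the receptor with the profile nearest to that of FGFBP1. It had a difference of 0.55 on the same measure, smaller than that of all but 10 of the 10713 candidates. The differences of the other 8 members lay between 1.35 and 2.10. At a mean of 4.52 CPM, FGFR3 lay below the 5 CPM asked of candidates and was not one of them. Both genes were chosen on this contrast, so their nearness is a description and no support. FGFR3 stood at 2.45, 1.35 and 1.73 CPM in early luteal replicates 1, 2 and 3, from 38, 10 and 26 counts, against 12.6, 4.80 and 4.19 CPM in post-ovulatory replicates 1, 2 and 3, from 169, 38 and 131 counts. The stages did not overlap, and post-ovulatory replicate 1 was again the highest library. The means were 1.84 ± 0.555 CPM at the early luteal stage and 7.19 ± 4.68 CPM at the post-ovulatory stage (SD, n = 3 each), and the log2 fold change was -1.95 ± 0.64 (SE). Without post-ovulatory replicate 1 it was -1.28, and that of FGFBP1 was -2.35. Per 1000 counts of FGFR2, FGFR3 had 27.7, 18.2 and 18.3 counts in the early luteal and 255, 61.7 and 59.6 counts in the post-ovulatory replicates, so the ratio of the 2 receptor genes did not overlap between the stages.

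**Figure D2:**
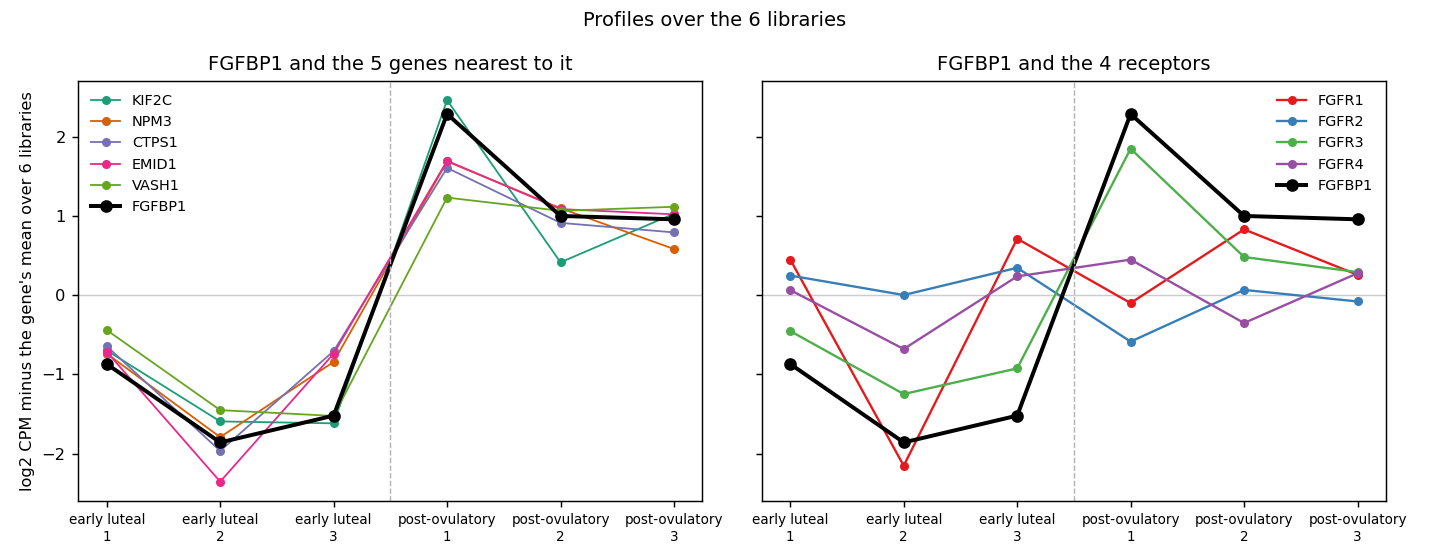
Log2 CPM minus each gene's mean over the 6 libraries (vertical axis) for FGFBP1 with the 5 genes nearest to it (left) and with the 4 receptors (right); points are libraries, early luteal before the dashed line, and lines only join the points of a gene. FGFR3 follows FGFBP1, whereas FGFR1 is low in early luteal replicate 2 alone and FGFR2 stays within 0.59 of its mean.

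FGFR2, the epithelial receptor for FGF7 and FGF10, varied least of the 10 genes. It stood at 88.2, 74.4 and 94.4 CPM in early luteal replicates 1, 2 and 3, against 49.4, 77.8 and 70.3 CPM in post-ovulatory replicates 1, 2 and 3. Early luteal replicate 2 lay below post-ovulatory replicate 2, so the stages overlapped, and the highest library was 1.91 times the lowest. The means were 85.7 ± 10.3 CPM at the early luteal stage and 65.8 ± 14.7 CPM at the post-ovulatory stage (SD, n = 3 each; log2 fold change 0.38 ± 0.27, SE). Against EPCAM the direction was not kept by every library, with 163, 68.1 and 191 FGFR2 counts per 1000 in the early luteal and 91.8, 202 and 135 in the post-ovulatory replicates.

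FGFR1, the receptor of stromal and many other cells, overlapped between the stages and was low in a single library. It stood at 31.1, 5.01 and 37.4 CPM in early luteal replicates 1, 2 and 3, against 21.2, 40.5 and 27.2 CPM in post-ovulatory replicates 1, 2 and 3. The level in early luteal replicate 2 rested on 37 counts and was under 0.5 times that of every other library. The log2 fold change was -0.27 ± 0.63 (SE) with all libraries and positive, at 0.21 and 0.0023, when early luteal replicate 2 or post-ovulatory replicate 2 was left out, so its sign depended on those libraries. Per 1000 FGFR1 counts there were 2836, 14838 and 2527 FGFR2 counts in the early luteal and 2330, 1919 and 2584 in the post-ovulatory replicates. FGFR4, a receptor best known in liver, stayed between 0.677 and 1.64 CPM in all 6 libraries, from 5 to 45 counts, and overlapped between the stages (log2 fold change -0.26 ± 0.67, SE).

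**Figure D3:**
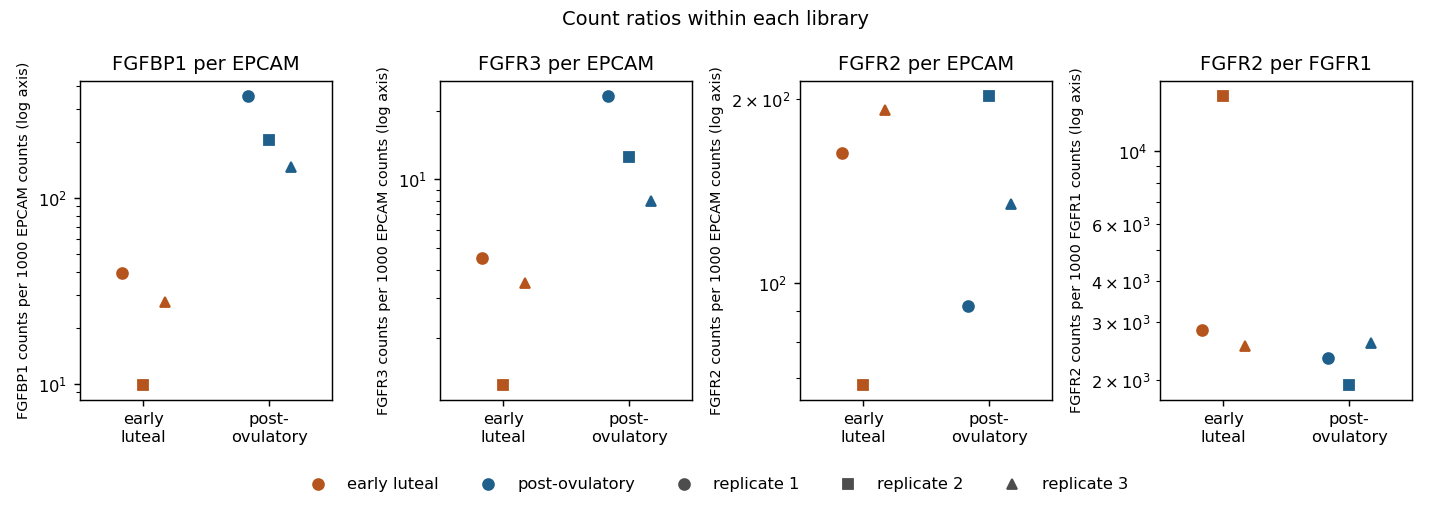
Counts of FGFBP1, FGFR3 and FGFR2 per 1000 EPCAM counts, and of FGFR2 per 1000 FGFR1 counts, in each library (vertical log axes), early luteal left and post-ovulatory right; symbols mark the replicates. FGFBP1 and FGFR3 separate the stages against EPCAM, FGFR2 does not, and early luteal replicate 2 stands alone in the ratio of FGFR2 to FGFR1.

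FGF10 and FGF7, the stromal ligands of the epithelial form of FGFR2, did not move as a pair. FGF10 stood at 6.83, 5.69 and 1.99 CPM in early luteal replicates 1, 2 and 3, from 106, 42 and 30 counts, against 2.01, 1.64 and 1.85 CPM in post-ovulatory replicates 1, 2 and 3, from 27, 13 and 58 counts. Early luteal replicates 1 and 2 lay above all post-ovulatory libraries, and early luteal replicate 3 lay among them. The means were 4.84 ± 2.53 CPM at the early luteal stage and 1.84 ± 0.185 CPM at the post-ovulatory stage (SD, n = 3 each), with a log2 fold change of 1.39 ± 0.63 (SE). FGF7 stood at 4.44, 37.3 and 23.1 CPM in early luteal replicates 1, 2 and 3, against 23.1, 45.8 and 14.0 CPM in post-ovulatory replicates 1, 2 and 3. Its 8.38-fold range within the early luteal stage exceeded the 1.28-fold ratio of the post-ovulatory to the early luteal mean, and early luteal replicate 1, the lowest library for FGF7, was the highest for FGF10. Early luteal replicate 1 was lowest in the 10 smooth muscle markers too. Their summed level was 1711, 9704 and 12862 CPM in early luteal replicates 1, 2 and 3 and 4479, 7445 and 3953 CPM in post-ovulatory replicates 1, 2 and 3, and all 10 had a row. The part of smooth muscle in the level of FGF7 was not tested. Its log2 fold change was -0.36 ± 0.72 (SE), and leaving out early luteal replicate 2 gave -1.005, early luteal replicate 1 gave 0.16 and post-ovulatory replicate 2 gave 0.22.

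FGF2, a ligand kept in cells and matrix, and FGF9, which in the mouse signals from epithelium and mesothelium to stroma, separated the stages by narrow margins and in opposite directions. FGF2 stood at 12.1, 16.0 and 17.8 CPM in early luteal replicates 1, 2 and 3, against 19.7, 27.7 and 18.0 CPM in post-ovulatory replicates 1, 2 and 3 (log2 fold change -0.51 ± 0.35, SE). The nearest libraries, early luteal replicate 3 and post-ovulatory replicate 3, were almost level. FGF9 stood at 2.96, 3.52 and 3.92 CPM in early luteal replicates 1, 2 and 3, from 26 to 59 counts, against 2.75, 1.77 and 2.65 CPM in post-ovulatory replicates 1, 2 and 3, from 14 to 83 counts (log2 fold change 0.53 ± 0.54, SE). Its lowest early luteal and highest post-ovulatory library likewise lay close together.

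FGF1, which binds all 4 receptors, showed no order by stage. It stood at 23.2, 3.25 and 10.2 CPM in early luteal replicates 1, 2 and 3, against 5.29, 10.2 and 23.3 CPM in post-ovulatory replicates 1, 2 and 3. Both stages ran through nearly the same range, and the log2 fold change of -0.08 ± 0.76 (SE) was positive, at 0.36, 0.03 and 0.67, without early luteal replicate 2, early luteal replicate 3 and post-ovulatory replicate 3. Leaving out early luteal replicate 1 gave -0.93.

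Of the 10 members, 3 (FGFBP1, FGFR3 and FGF2) were lower and 1 (FGF9) was higher in every early luteal library than in every post-ovulatory one. Over all tested genes the stages did not overlap in 17.2%, with 9.57% lower and 7.61% higher, and since the members were chosen on this contrast nothing is read from their count. Their median log2 fold change was -0.26, against -0.03 over all tested genes. The edgeR quasi-likelihood test called 0% of the 17920 genes at an adjusted p of 0.05, members included. Before adjustment, 1275 genes (7.11%) had a p under 0.05. By other tools, limma voom called 0 genes and DESeq2 called 177, or 1.02%. DESeq2 called 1 of the 10 members, FGFBP1 (adjusted p = 4.09e-06), on the contrast it was chosen on.

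**Figure D4:**
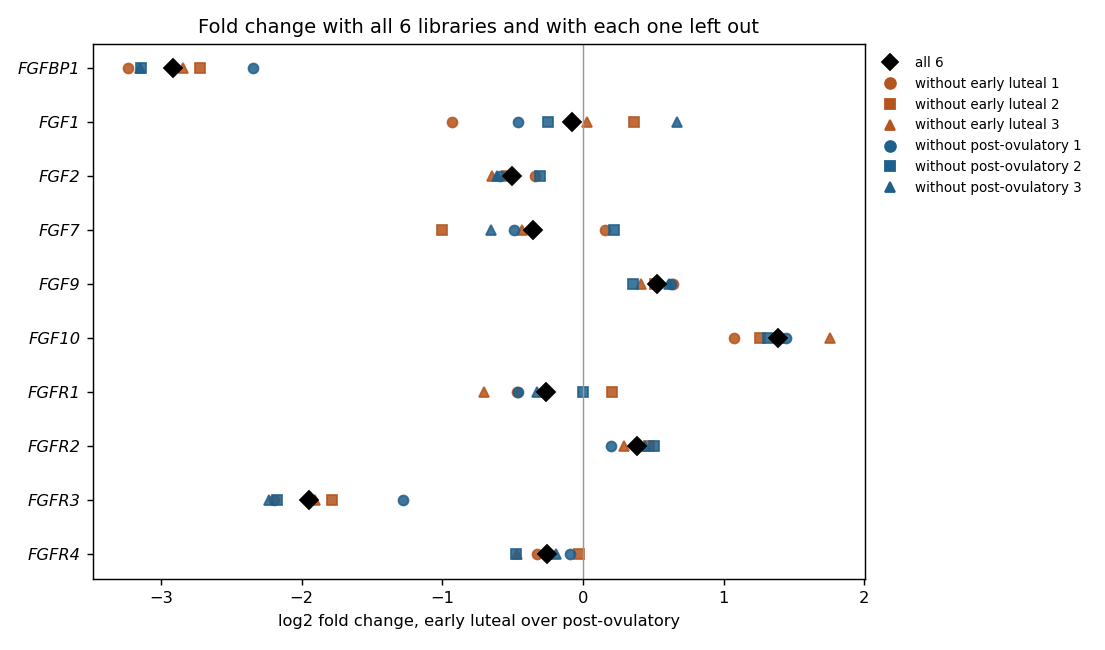
Log2 fold change of each member, early luteal over post-ovulatory (horizontal axis), with all 6 libraries (black diamonds) and with each library left out in turn (coloured symbols). FGFBP1, FGFR3, FGF2 and FGFR4 stay negative and FGF9, FGF10 and FGFR2 positive in every fit, while FGF1, FGF7 and FGFR1 take both signs.

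The rest of the pathway was read from 5 lists with 94 genes, of which 87 had a row and 67 passed the filter. None of the 67 passed the threshold by edgeR, limma voom or DESeq2. At an unadjusted p under 0.05 edgeR counted 4 of them, 2 higher and 2 lower, which compares with 3.57% higher and 3.54% lower over all tested genes. The stages did not overlap in 13 of the 67, 11 lower and 2 higher. Over all tested genes the share was 17.2%, with 9.57% lower and 7.61% higher. The median log2 fold change was -0.13. In early luteal replicate 2, 19 of the 67 genes (28.4%) lay under 0.5 times their level in every other library. The share over all tested genes in that library was 20.3%. Among the 19 were the proteoglycan genes HSPG2 and SDC3, the sulphatase gene SULF2 and the kinase gene MAPK3.

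**Figure D5:**
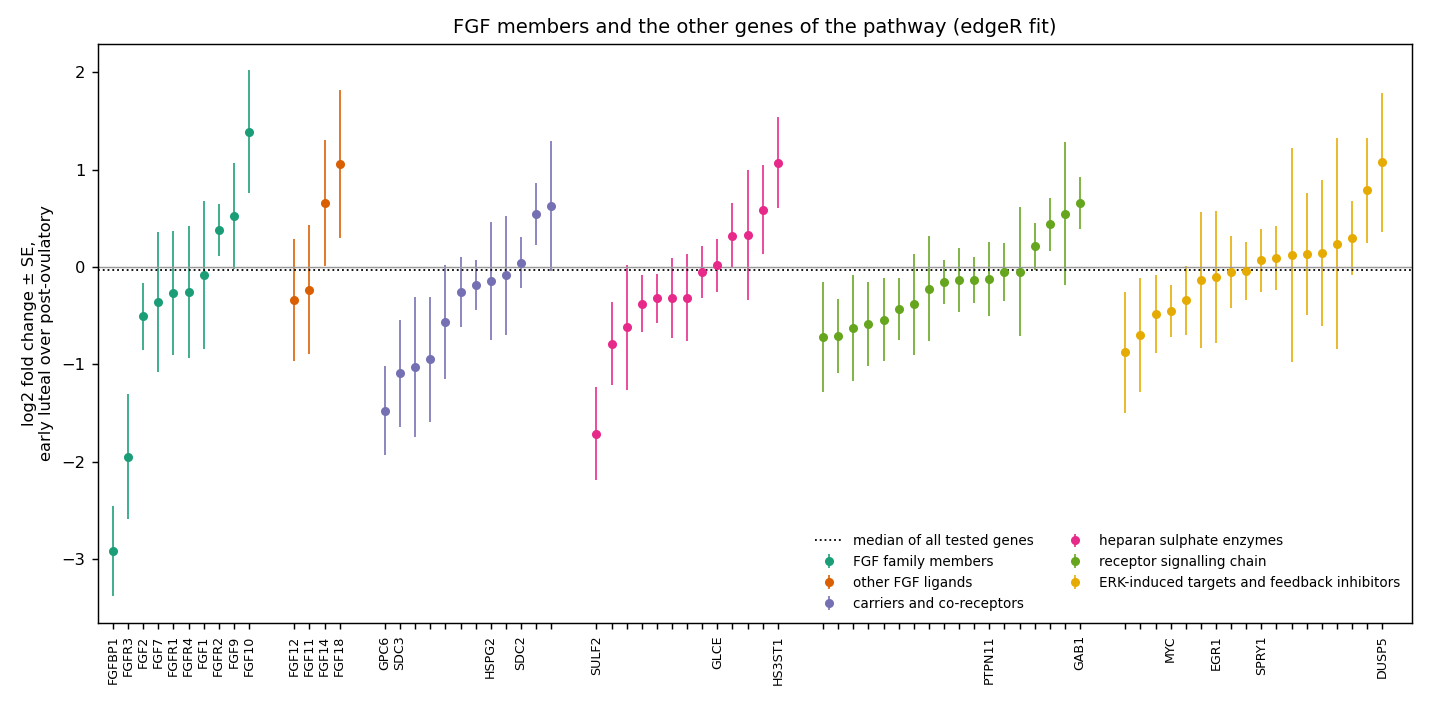
Log2 fold change with its SE, early luteal over post-ovulatory (vertical axis), for the 10 members and 65 of the 67 tested genes of the 5 pathway lists, sorted within each list, with names for the genes described in the text; the dotted line is the median of all tested genes. FGFBP1 and FGFR3 lie below every pathway gene drawn, and no gene drawn passed the threshold in edgeR.

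Among carriers and co-receptors, 12 of 20 genes were tested, with 0 called, 1 at an unadjusted p under 0.05 and a median log2 fold change of -0.22. That gene was GPC6, a glypican, which carries heparan sulphate on the cell surface. It stood at 6.12, 6.50 and 3.19 CPM in early luteal replicates 1, 2 and 3, against 15.0, 17.3 and 11.6 CPM in post-ovulatory replicates 1, 2 and 3. The stages did not overlap (log2 fold change -1.47 ± 0.46, SE; edgeR quasi-likelihood, Benjamini-Hochberg adjusted p = 0.663). The syndecan SDC3 averaged 22.6 ± 15.2 CPM at the early luteal stage and 48.3 ± 11.7 CPM at the post-ovulatory stage, and its lowest library, at 6.50 CPM, was early luteal replicate 2. HSPG2 (perlecan) and the syndecan SDC2 were picked by mean CPM, which also depends on transcript length. HSPG2 averaged 224 ± 163 CPM in early luteal libraries, against 247 ± 64.9 CPM in post-ovulatory libraries, and SDC2 averaged 122 ± 25.1 CPM in early luteal libraries, against 118 ± 19.6 CPM in post-ovulatory libraries (SD, n = 3 each). KLB, a co-receptor of hormone-like FGFs, did not pass the filter and had 74 counts over the early luteal and 29 over the post-ovulatory libraries. Of the 74 early luteal counts, 38 came from replicate 2, and the CPM values of the stages overlapped.

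Among enzymes that build or trim heparan sulphate, 13 of 18 genes were tested, with 0 called, 2 at an unadjusted p under 0.05 and a median log2 fold change of -0.31. SULF2 removes sulphate groups from heparan sulphate outside the cell. It stood at 56.2, 17.2 and 34.8 CPM in early luteal replicates 1, 2 and 3, against 134, 153 and 68.1 CPM in post-ovulatory replicates 1, 2 and 3, with no overlap (log2 fold change -1.71 ± 0.47, SE; edgeR quasi-likelihood, adjusted p = 0.632). HS3ST1, a sulphotransferase, stood at 26.7, 101 and 49.1 CPM in early luteal replicates, against 22.8, 27.4 and 33.5 CPM in post-ovulatory replicates, so early luteal replicate 1 overlapped with the other stage (log2 fold change 1.07 ± 0.47, SE; 0.44 without early luteal replicate 2; edgeR adjusted p = 0.685). The epimerase gene GLCE was level, at 71.6 ± 18.7 CPM at the early luteal stage and 70.7 ± 8.36 CPM at the post-ovulatory stage.

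All 20 genes of the receptor signalling chain were tested, with 0 called, 1 at an unadjusted p under 0.05 and a median log2 fold change of -0.14. GAB1, a docking protein that links receptors to downstream kinases, stood at 112, 112 and 100.1 CPM in early luteal replicates 1, 2 and 3, against 49.8, 75.7 and 79.8 CPM in post-ovulatory replicates 1, 2 and 3. All early luteal libraries lay above all post-ovulatory ones (log2 fold change 0.66 ± 0.26, SE; edgeR quasi-likelihood, adjusted p = 0.685). The phosphatase gene PTPN11 averaged 105 ± 49.9 CPM in early luteal libraries, against 114 ± 35.1 CPM in post-ovulatory libraries (SD, n = 3 each).

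Genes that ERK switches on, and the inhibitors among them, had the median nearest to 0 of the 5 lists. Of 19 genes 18 were tested, with 0 called, 0 at an unadjusted p under 0.05 in edgeR and a median log2 fold change of 0.01. SPRY1, a Sprouty inhibitor, averaged 178 ± 27.2 CPM at the early luteal stage and 170 ± 57.9 CPM at the post-ovulatory stage. MYC averaged 71.4 ± 15.7 CPM at the early luteal stage and 97.6 ± 15.0 CPM at the post-ovulatory stage (SD, n = 3 each). The phosphatase gene DUSP5 was high in early luteal replicate 3, with 2.25, 5.83 and 15.0 CPM in early luteal replicates 1, 2 and 3 and 4.84, 3.03 and 3.07 CPM in post-ovulatory replicates 1, 2 and 3. The immediate early gene EGR1, which also responds to tissue handling, spread from 41.0 to 210 CPM over the early luteal and from 47.2 to 243 CPM over the post-ovulatory libraries.

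Of the 17 other FGF ligand genes 15 had a row and 4 passed the filter, with 0 called and 0 at an unadjusted p under 0.05 in edgeR. FGF18, a ligand of FGFR3 among other receptors, stood at 3.09, 6.91 and 6.98 CPM in early luteal replicates 1, 2 and 3, against 0.596, 3.54 and 4.00 CPM in post-ovulatory replicates 1, 2 and 3. Early luteal replicate 1 overlapped with the post-ovulatory stage (log2 fold change 1.06 ± 0.76, SE; 0.57 without post-ovulatory replicate 1; edgeR quasi-likelihood, adjusted p = 0.771). The other 3, FGF11, FGF12 and FGF14, belong to the group of FGFs that stay inside the cell, and all overlapped between the stages. FGF11 averaged 10.2 ± 7.67 CPM at the early luteal stage and 12.1 ± 3.85 CPM at the post-ovulatory stage, and FGF12 averaged 6.07 ± 2.59 CPM in early luteal libraries, against 7.62 ± 4.15 CPM in post-ovulatory libraries. FGF14 averaged 2.99 ± 0.746 CPM in early luteal libraries, against 1.87 ± 0.973 CPM in post-ovulatory libraries (SD, n = 3 each). The 11 ligand genes below the filter included FGF4 and FGF19, which had no count in any library.

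In the RefSeq annotation of Sscrofa11.1, matched by symbol, FGFBP1 is a protein-coding gene at chr8:11186360-11189317, and FGFR3 lies on the same chromosome at chr8:879151-894968. FGF2 lies at chr8:101278877-101344084 and overlaps NUDT6, which stood at 3.20 to 5.96 CPM, and an uncharacterised gene. FGF7, at chr1:122215878-122278705, overlaps FAM227B, which stood at 1.08 to 6.25 CPM, and FGF10, at chr16:28695465-28779953, overlaps an uncharacterised gene. No source used here describes the counting or its use of strand, so how reads were shared out in these overlaps is uncertain. FGFR1 (chr15:48053895-48106634), FGFR2 (chr14:131183095-131285001), FGF1 (chr2:144133846-144241345) and FGF9 (chr11:1554648-1581938) overlap no other listed gene, and FGFR4 (chr2:80841536-80853791) overlaps a microRNA gene.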

How the data were processed

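Per the labels' protocols, ampulla RNA went into stranded, polyadenylated KAPA libraries that were read from both ends (Illumina NextSeq2000). The submitters' processing notes name FastQC (0.11.4), Trim Galore, STAR and Sscrofa11.1; no counter or annotation release is given in the sources used here. The deposited table holds raw, whole-number counts for each Ensembl gene, with header words that name the 6 libraries. Symbols came from a table of Ensembl identifiers (15623 matched).

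All genes were fitted together with edgeR 4.0.16 in R 4.3.3 (filterByExpr, TMM, robust quasi-likelihood, two-sided, Benjamini-Hochberg adjustment, threshold 0.05) after a check on simulated data. Fold changes put early luteal over post-ovulatory, and the SE is the absolute log2 fold change divided by the root of F. Log2 CPM used a prior count of 2. DESeq2 1.42.0 and limma 3.58.1 were alternatives, besides other scalings, filters, a replicate block and each library left out. No gene model lengths were used, so levels are compared within a gene only. Named pathway genes are, as none passed, the 2 with the lowest p and the 2 with the highest mean CPM of each list (2 of the 19 so named are not reported here); KLB, FGF4, FGF19 and MAPK3 were named after their values were seen. Members and lists were chosen with earlier results of these data known.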

Additional observations from a re-analysis of the deposited data

How the results depend on the processing

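The count of genes called was 0 in edgeR under each scaling, with the filter of 1 CPM in 3 libraries, at an adjusted p of 0.1, without each library in turn (0 to 0) and in limma voom, whereas it was 8 with no filter on low counts and 177 in DESeq2; the cause was not tested. No pathway gene was called under any alternative. The log2 fold change of FGFBP1 kept its sign in all 20 alternatives, from -3.23 to -2.35 without each library in turn, and was -3.32 against EPCAM, -3.17 against CDH1, -3.58 against KRT7, -2.45 against KRT18, -2.03 against KRT8 and -1.47 against OVGP1, alternatives chosen after seeing the data; the cause of these differences was not tested. No scaling moved the median of all genes by more than 0.05. Same-numbered libraries deviated from their stage means with correlations of 0.05, -0.08 and 0.13, and differently numbered ones with -0.16 to 0.06. With 3 libraries per stage these values cannot decide whether same-numbered libraries shared an animal or a batch. With the replicate block 0 genes were called and FGFBP1 stood at -2.84.

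Of 17 named pathway genes, 10 kept their sign throughout. The others, all near 0 with all libraries, changed it. With no filter, SDC2 stood at -0.018 and GLCE at -0.049. With the replicate block GLCE stood at -0.0089, and in limma voom at -0.041. Leaving out a library in turn, log2 fold changes ran from -0.13 to 0.20 for SDC2, from -0.22 to 0.17 for GLCE, from -0.58 to 0.15 for PTPN11, from -0.75 to 0.66 for EGR1, from -0.88 to 0.22 for FGF11, from -0.73 to 0.33 for HSPG2 and from -0.20 to 0.25 for SPRY1. Depth limits FGFR4, FGF9, FGF10 and FGFR3, each with fewer than 20 counts in at least 1 library.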
